A study of Mus musculus with 18 samples.

Results

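The genes described here are markers of tumor-associated macrophages, the macrophages that collect in a growing tumor. They belong to a list of 9 genes, Arg1, Msr1, Fcgr1, Spp1, Gpnmb, Nos2, Csf1, Thbs1 and Chil3, chosen by their known role and selected on values of these arrays, since the tumor against normal results were in view when the list was proposed. A gene was taken up where a transcript cluster (the set of probes that the array reads as 1 transcript) carried its symbol and no other. This held for 7 of the 9 listed genes, out of 27030 genes on the array, and each of the 7 had a single cluster. Spp1 (osteopontin) was not analysed here. The only cluster of Chil3 carried 2 symbols, Chil3 and its older name Chi3l3, and so fell outside the rule. Its values ran from 3.42 to 3.70 over the 18 arrays, below the detection level of 5.39 that is explained further on.

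The study compared mammary tissue of female C57Bl/6 mice on 18 arrays, 6 in each of 3 groups. M/D-driven tumors came from mice that carried a pellet releasing 50 mg of medroxyprogesterone acetate (MPA, M, a synthetic progestin) over 90 days, implanted at 6 to 9 weeks of age. These mice also received 6 gavages of 200 µL of DMBA (D, 7,12-dimethylbenz[a]anthracene, a carcinogen) at 5 mg/mL in corn oil, and their tumors were collected at 0.7 to 1 cm2. Hyperplastic glands came from mice given the same pellet and gavages that had not developed a tumor, and normal glands from M/D-naïve mice given neither agent, whose age the labels do not state. Thus, tumors and hyperplastic glands shared their exposure, and normal glands differed from both in the agents received. The labels number the samples without naming the mouse behind each, so that every p value refers to the spread among the samples of a group, which may be technical in part.

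Macrophages in tissue are renewed from resident cells or from blood monocytes, under the control of colony-stimulating factor 1. Once in a tumor they take up dying cells and antibody-coated particles, and they can consume arginine, an amino acid that T cells need to divide. Arginase 1 and the inducible nitric oxide synthase use the same arginine for different products, and are commonly taken as marks of alternative and of classical activation. None of these genes is made by macrophages alone: fat cells, fibroblasts, epithelium and platelets are other known sources of some of them.

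Values were log2 RMA levels, in which 1 unit is a 2-fold difference. They ran from 2.11 to 13.99, and the medians of the arrays from 5.31 to 5.51. A gene was regarded as detected above 5.39, the 95th percentile of the mean levels of 949 olfactory receptor genes, and 16876 genes passed this level. All 7 macrophage genes lay above it on all 18 arrays. In whole tissue, more cells of a type and more RNA per cell cannot be told apart.

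Tumor 3 stood apart. Its mean level over 9 luminal epithelial genes was 7.78, against 9.44 to 10.78 in the other 5 tumors, and over 5 basal epithelial genes it was 7.36, against 8.96 to 9.95. A pan-macrophage score served to follow macrophage RNA as a whole. It was the mean of 14 macrophage and myeloid genes (of 21 listed, none of them among the 7), each centred on its mean over all arrays. Its defining genes include Cd68, Itgam, Tyrobp, Mertk, Lyz2 and the complement genes C1qa, C1qb and C1qc. Csf1r and Adgre1 were not analysed here. The score was highest in tumor 3, at 1.16, with hyperplastic gland 3 at 0.54 and tumor 6 at 0.49. The mean score was 0.16 ± 0.57 for tumors, 0.04 ± 0.30 for hyperplastic tissue and -0.20 ± 0.13 for normal glands (SD over 6 arrays each). No difference in the score passed the test: the exact two-sided permutation test, adjusted over 3 comparisons, gave p = 0.279 for tumors against normal glands (difference 0.35), p = 0.712 for tumors against hyperplastic glands (0.11) and p = 0.273 for hyperplastic against normal glands (0.24). The smallest p that 6 against 6 arrays can give is 0.00216.

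**Figure D1:**
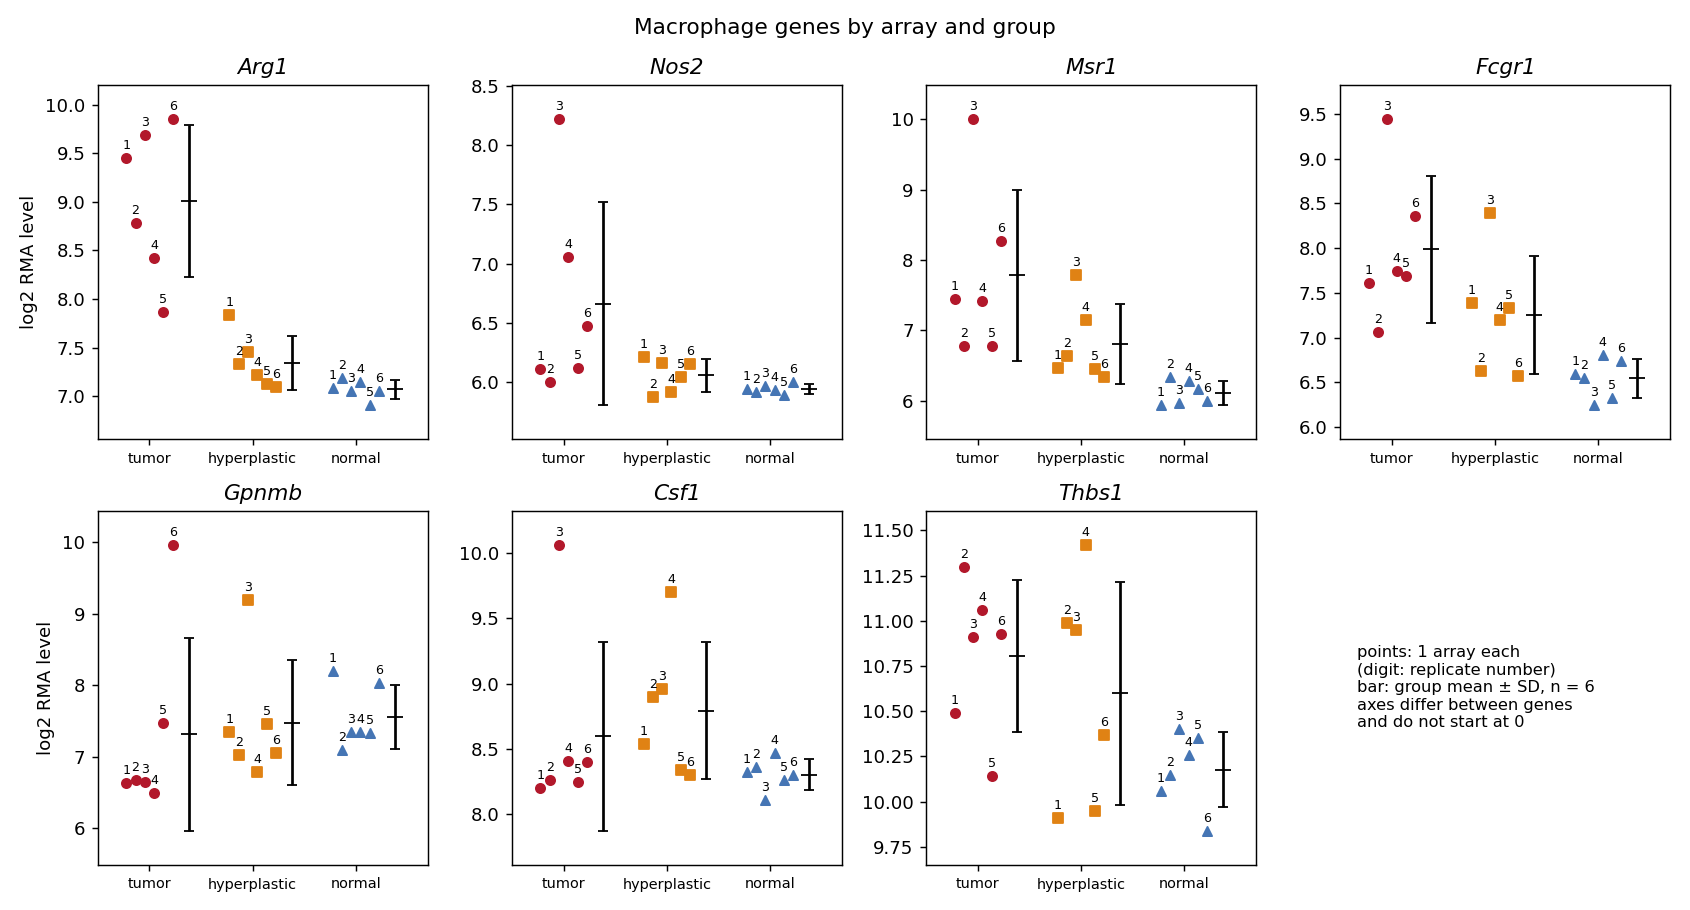
Log2 RMA level (vertical axis) of the 7 macrophage genes on each of the 18 arrays, with tumors (circles), hyperplastic glands (squares) and normal glands (triangles) from left to right, digits giving the replicate number and bars the group mean ± SD (n = 6). All 6 tumors lay above all hyperplastic and normal glands for Arg1, at 7.87 or more, whereas single arrays such as tumor 3 for Nos2 (8.22) and Csf1 (10.06) and tumor 6 for Gpnmb (9.96) stood far above the rest of their groups.

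For 3 of the 7 genes, Fcgr1, Gpnmb and Csf1, the start region of the gene is held in RefSeq's promoter table for the mouse genome GRCm38.p6, which has 32851 entries of 250 bases before and 50 bases after the start. They are the regions held for these genes and were searched on both strands for short motifs of factors that act in macrophages. Capitals mark every match: TGANTCA of AP-1, CACGTG of the Mitf and Tfe factors, ACGTG of the hypoxia response, GAGGAA of PU.1, TTGCNNAA of C/EBP factors and GGGANNNCC of NF-kB. The letters CACGTG contain ACGTG. Fcgr1 lies at chr3:96293920-96294219, minus strand. Gpnmb lies at chr6:49036268-49036567, plus strand. Csf1 lies at chr3:107760420-107760719, minus strand.
Fcgr1: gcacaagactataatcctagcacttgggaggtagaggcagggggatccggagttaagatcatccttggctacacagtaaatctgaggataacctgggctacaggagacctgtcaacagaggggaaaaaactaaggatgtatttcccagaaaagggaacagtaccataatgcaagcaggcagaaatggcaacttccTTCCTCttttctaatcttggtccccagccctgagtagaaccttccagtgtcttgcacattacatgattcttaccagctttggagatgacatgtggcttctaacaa
Gpnmb: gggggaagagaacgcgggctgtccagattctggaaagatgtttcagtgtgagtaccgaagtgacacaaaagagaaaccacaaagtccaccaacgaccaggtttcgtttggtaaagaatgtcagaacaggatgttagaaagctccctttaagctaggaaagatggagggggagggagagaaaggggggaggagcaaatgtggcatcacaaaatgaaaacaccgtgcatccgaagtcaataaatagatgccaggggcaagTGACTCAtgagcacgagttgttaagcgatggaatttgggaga
Csf1: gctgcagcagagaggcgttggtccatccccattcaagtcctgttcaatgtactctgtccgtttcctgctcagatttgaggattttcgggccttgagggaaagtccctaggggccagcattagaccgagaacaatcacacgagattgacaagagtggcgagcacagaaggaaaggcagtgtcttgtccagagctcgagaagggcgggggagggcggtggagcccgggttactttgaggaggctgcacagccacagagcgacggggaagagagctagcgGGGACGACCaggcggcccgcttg

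The region of Fcgr1 held the PU.1 letters on the other strand as TTCCTC, 55 bases before the start, which 28.3% of all promoters of the table hold. Gpnmb held the AP-1 letters as TGACTCA, 8 bases after the start, which 7.81% of promoters hold. Csf1 held the NF-kB letters as GGGACGACC, 27 bases after the start, which 18.6% of promoters hold. None of the 3 regions held CACGTG (7.15% of promoters), ACGTG (19.6%) or TTGCNNAA (10.8%). A match describes these letters only, and binding was not measured.

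As a group, the 7 genes were mostly higher in tumors than in normal glands, which is the comparison that stood in view when they were listed. Their median log2 difference was 0.72, beside 0.04 over all genes, 6 of the 7 had a higher mean in tumors, and 4 (Arg1, Nos2, Msr1 and Fcgr1) were called higher at an adjusted p under 0.05 with limma. The call of Nos2 held in 4 of 18 fits with 1 array left out. Over all genes, 19.5% were called higher and 12.7% lower in this comparison. Because it chose the 7, their calls in it only describe the values that chose them. They are no test, and no p value is given for the 7 there. Between tumors and hyperplastic glands, 1 of the 7 genes (Arg1) was called higher and none lower, while 11.9% of all genes were called higher and 8.57% lower. The median difference of the 7 was 0.60, beside 0.04 over all genes. Between hyperplastic and normal glands, limma called none of the 7, and 1.01% of all genes were called higher and 0.655% lower. The median difference was 0.42, beside 0.01 over all genes, with 6 of the 7 means higher in hyperplastic glands. In this last comparison 1 of the 7 (Fcgr1) had an unadjusted limma p under 0.05, as did 13.6% of all genes in either direction. An unadjusted exact permutation p under 0.05 was found for 4 of the 7 (Arg1, Msr1, Fcgr1 and Csf1) and for 18.5% of all genes. The 3 comparisons share arrays, so that their differences are not independent of each other. The tumor arrays behind the choice of the 7 also enter tumors against hyperplastic glands and the gap between steps given below. The normal arrays behind it enter hyperplastic against normal glands and that gap. The p values of the 7 in these comparisons are therefore not free of the choice.

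**Figure D2:**
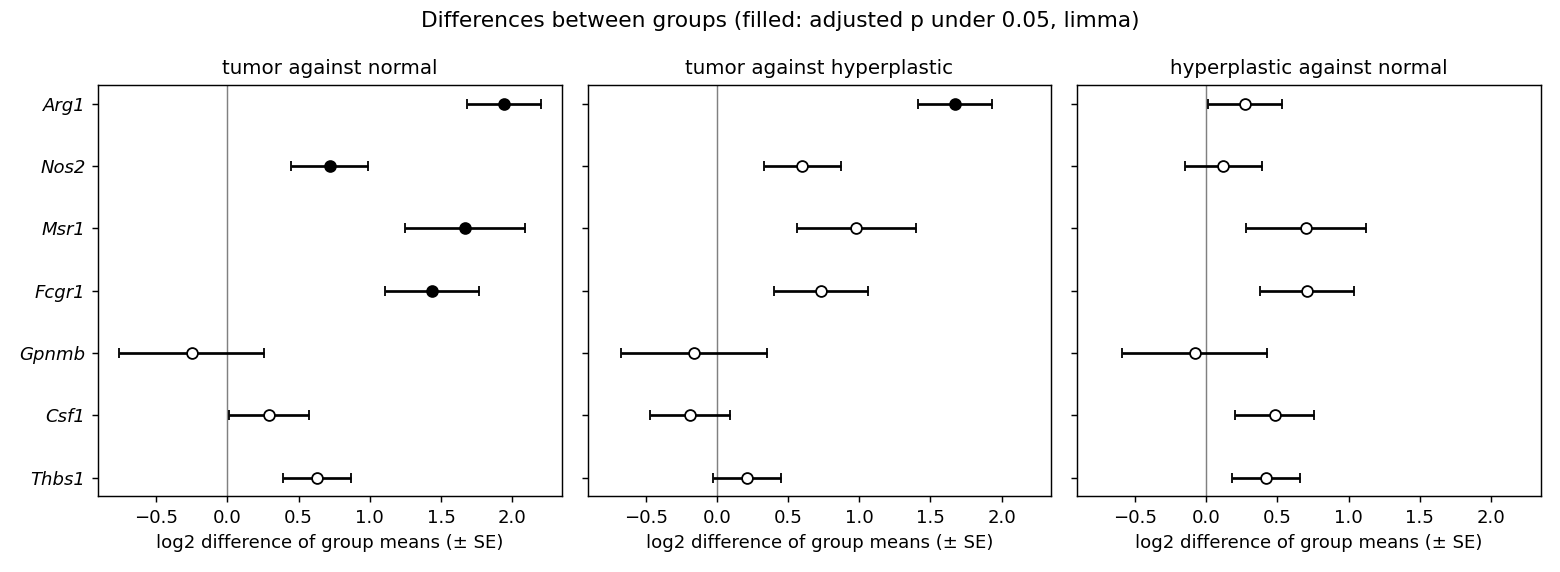
Log2 difference of group means (horizontal axis, bars ± SE from limma, 6 arrays per group) for the 7 macrophage genes in the 3 comparisons, with filled points for an adjusted p under 0.05. Arg1 is the only filled point for tumors against hyperplastic glands (1.67 ± 0.26), and there is none for hyperplastic against normal glands. The tumor against normal panel is a description, since the genes were listed with it in view.

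Arg1 encodes arginase 1, which splits arginine into ornithine and urea and is the usual mark of alternatively activated mouse macrophages. Its level ran from 7.87 to 9.85 in tumors, with a median of 9.12. Hyperplastic glands ran from 7.09 to 7.83 (median 7.28) and normal glands from 6.91 to 7.19 (median 7.07). Every tumor was therefore above every hyperplastic and every normal gland, with tumor 6, tumor 3 (9.69) and tumor 1 (9.45) the highest and tumor 5 the lowest. Arg1 was 3.18-fold higher in tumors than in hyperplastic glands (log2 difference 1.67 ± 0.26 SE, adjusted p = 0.000191 with limma, higher in 6 of 6 tumors). The difference was 1.5 to 1.9 when each array was left out in turn, with adjusted p between 7.40e-06 and 0.00074. The same 6 tumors stood in the comparison that chose Arg1, so that these p values are not independent of the choice. Against normal glands the log2 difference of tumors was 1.94 ± 0.26. Hyperplastic glands differed from normal glands by 0.27 ± 0.26 (adjusted p = 0.775 with limma), less than the spread between arrays in that fit. Their highest array, hyperplastic gland 1, was at 7.83, next to tumor 5 at 7.87. The exact permutation test, which uses the 12 arrays of these groups only, gave an unadjusted p of 0.0238 for the same difference.

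The step of Arg1 at the tumor, tumors minus hyperplastic glands, exceeded its step at exposure, hyperplastic minus normal glands, by 1.40 ± 0.45 on the log2 scale, the widest such gap among the 7 genes. It did not pass the adjustment over all genes (adjusted p = 0.148 with limma), and 2.09% of all genes did. Arg1 did pass with limma's array weights (1.27, adjusted p = 0.043), without tumor 5 (1.63, adjusted p = 0.0162) and with arrays centred on reference genes (1.69, adjusted p = 0.0244). The shares of all genes passing in these settings are not given. That centring also moved the median of all genes, to 0.19 for tumors against hyperplastic glands and to -0.14 for hyperplastic against normal glands. Without centring, the gaps of the other 6 genes lay between -0.68 (Csf1) and 0.48 (Nos2). With reference gene centring they lay between -0.39 (Csf1) and 0.77 (Nos2).

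Nos2 encodes the inducible nitric oxide synthase, which makes nitric oxide from arginine and is a mark of classical activation. In tumors it ran from 6.00 to 8.22, with a median of 6.29. Hyperplastic glands ran from 5.87 to 6.21 (median 6.10) and normal glands from 5.89 to 6.00 (median 5.93). Tumor 3 at 8.22 and tumor 4 at 7.06 were high, and the 4 remaining tumors lay between 6.00 and 6.47, with overlap with both other groups. The log2 difference of tumors was 0.72 ± 0.27 against normal glands and 0.60 ± 0.27 against hyperplastic glands (adjusted p = 0.134 with limma). Without tumors 3 and 6 these were 0.38 and 0.26. Hyperplastic and normal glands differed by 0.12 ± 0.27 (adjusted p = 0.943 with limma).

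Arg1 and Nos2 were not high on the same tumors throughout. Tumor 6 had the highest Arg1 (9.85) with Nos2 at 6.47, tumor 4 had the second highest Nos2 with the second lowest Arg1 (8.42), and tumor 3 was high in both. Their deviations from the group means correlated at r = 0.35 over the 18 arrays, where arrays of one tissue share depth and cell makeup.

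Among 11 other measured genes of arginine use (of 14 listed), 5 were called higher and 2 lower in tumors than in normal glands, with a median log2 difference of 0.30. Against hyperplastic glands, 1 was called higher and 1 lower, with a median of 0.10. Srm, the spermidine synthase that follows ornithine decarboxylase, was higher in tumors than in hyperplastic glands by 0.64 ± 0.13 (adjusted p = 0.00194 with limma) in 6 of 6 tumors, with no overlap. Odc1, the ornithine decarboxylase itself, differed by -0.20 ± 0.18 (adjusted p = 0.495 with limma). Arg2, the mitochondrial arginase, had a mean of 7.94 for tumors, 7.49 for hyperplastic tissue and 6.98 for normal glands. It differed by 0.96 ± 0.30 between tumors and normal glands (adjusted p = 0.0197 with limma) and by 0.45 ± 0.30 between tumors and hyperplastic glands (adjusted p = 0.337). The other nitric oxide synthases had lower levels in tumors. Nos3, the endothelial enzyme, was lower in tumors than in hyperplastic glands by 0.62 on the log2 scale (-0.62 ± 0.11, adjusted p = 0.000663 with limma), in 6 of 6 tumors. Nos1, the neuronal enzyme, was already lower in hyperplastic than in normal glands (-0.52 ± 0.06, adjusted p = 0.000457 with limma). Beside Nos3, 6 of 7 measured genes of blood endothelium were called lower in tumors than in hyperplastic glands, with a median of -0.97 over the 7, and their part in the value of Nos3 was not tested.

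Msr1 encodes the macrophage scavenger receptor that takes up modified lipoproteins and debris. In tumors it ran from 6.77 to 10.0, with a median of 7.43. Hyperplastic glands ran from 6.33 to 7.79 (median 6.55) and normal glands from 5.94 to 6.33 (median 6.07). All tumors lay above all normal glands, and the 6 hyperplastic glands reached from the top of the normal range to above the tumor median. Tumor 3 was 1.73 log2 units above the next tumor, tumor 6 at 8.27. Hyperplastic gland 3 was the highest of its group, followed by hyperplastic gland 4 at 7.15. The log2 difference was 1.67 ± 0.42 for tumors against normal glands, 0.98 ± 0.42 for tumors against hyperplastic glands (adjusted p = 0.117 with limma) and 0.70 ± 0.42 for hyperplastic against normal glands (adjusted p = 0.529). In the last comparison all 6 hyperplastic arrays were above the normal mean, and the unadjusted exact permutation p was 0.00433. The difference between tumors and hyperplastic glands depended on single arrays. It was 0.53 without tumor 3 (adjusted p = 0.188 with limma) and 0.30 without tumors 3 and 6 (adjusted p = 0.457). Without tumor 3 and hyperplastic gland 3, an alternative added after the values were seen, it was 0.73 (adjusted p = 0.0353).

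Fcgr1 encodes the high-affinity receptor for IgG (CD64), found on monocytes and macrophages. It ran from 7.06 to 9.44 in tumors (median 7.72), from 6.57 to 8.39 in hyperplastic glands (median 7.27) and from 6.25 to 6.81 in normal glands (median 6.57). Tumors again lay above all normal glands and overlapped with hyperplastic glands, of which gland 3 reached 8.39. The log2 difference was 1.44 ± 0.33 for tumors against normal glands, 0.73 ± 0.33 for tumors against hyperplastic glands (adjusted p = 0.139 with limma) and 0.71 ± 0.33 for hyperplastic against normal glands (adjusted p = 0.364). The gap between the steps of Fcgr1 was 0.03 ± 0.58, and it was -0.26 without tumor 3 and 0.48 without hyperplastic gland 3. The difference between tumors and hyperplastic glands was 0.44 without tumor 3 (adjusted p = 0.286 with limma), 0.28 without tumors 3 and 6 (adjusted p = 0.552) and 0.96 without hyperplastic gland 3 (adjusted p = 0.0371). Without tumor 3 and hyperplastic gland 3 it was 0.67 (adjusted p = 0.0326 with limma).

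The partner chain and the sister receptors of Fcgr1 were measured on the same arrays. Fcer1g, the signalling chain of the activating Fc receptors, exceeded its normal level in tumors by 0.85 ± 0.24 (adjusted p = 0.00957 with limma). Against hyperplastic glands the difference was 0.67 ± 0.24, just outside the threshold (adjusted p = 0.0528 with limma). Fcgr4, another activating receptor, had a mean of 6.77 for tumors, 6.15 for hyperplastic tissue and 5.18 for normal glands. It differed between tumors and normal glands by 1.59 ± 0.43 (adjusted p = 0.00858 with limma). Fcgr3 (0.45 ± 0.22, adjusted p = 0.129) and the inhibitory receptor Fcgr2b (0.44 ± 0.27, adjusted p = 0.235) did not pass limma's test in that comparison.

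The scavenger receptors related to Msr1 mostly went the other way. Of 12 measured scavenger and Fc receptors other than Msr1 and Fcgr1 (of 13 listed), 2 were called higher in tumors than in normal glands (Fcgr4 and Fcer1g) and 5 lower, with a median of -0.12. Against hyperplastic glands, none was called higher and 3 (Cd36, Scarb1 and Scara3) lower, with a median of -0.17. Without hyperplastic gland 3, 2 were called higher, and the call of Scara3 held in 10 of 18 fits with 1 array left out. Marco, a scavenger receptor of resident macrophages, had a mean of 6.43 for tumors, 6.71 for hyperplastic tissue and 7.74 for normal glands. It was lower in hyperplastic than in normal glands by 1.02 on the log2 scale (-1.02 ± 0.13, adjusted p = 0.000784 with limma), in 6 of 6 glands. Cd36, a fatty acid transporter and scavenger receptor that fat cells and endothelium also make, differed by -2.94 ± 0.23 between tumors and hyperplastic glands (adjusted p = 1.38e-07 with limma). All 9 fat cell genes, of which Cd36 is itself 1, were called lower in tumors, with a median of -2.98 against hyperplastic glands. The part of fat cell content in the value of Cd36 was not tested.

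Gpnmb encodes a glycoprotein of lysosomes and melanosomes that macrophages make when loaded with lipid or debris. Its level ran from 6.49 to 9.96 in tumors (median 6.66), from 6.79 to 9.19 in hyperplastic glands (median 7.20) and from 7.10 to 8.20 in normal glands (median 7.34). The medians thus ran in the reverse order of those of Arg1, Msr1 and Fcgr1. In tumors the range was set by tumor 6 at 9.96, since tumor 5 followed at 7.47 and the 4 remaining tumors lay between 6.49 and 6.67, below every normal gland and all hyperplastic glands. Tumor 3, which had the highest Msr1 and Fcgr1, had Gpnmb at 6.65. Among hyperplastic glands, gland 3 was at 9.19 and the next at 7.46. The log2 difference was -0.25 ± 0.51 for tumors against normal glands, -0.16 ± 0.51 for tumors against hyperplastic glands (adjusted p = 0.865 with limma) and -0.08 ± 0.51 for hyperplastic against normal glands (adjusted p = 0.984). Without hyperplastic gland 3 the difference between tumors and hyperplastic glands was 0.18. Gpnmb had the widest SE of the 7 genes.

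Among 10 measured lysosome and melanosome genes related to Gpnmb (of 11 listed), none was called higher and 2 were called lower in tumors than in hyperplastic glands, with a median of 0.01. Mitf, a factor that drives Gpnmb in other cells, was lower in tumors than in hyperplastic glands (-0.53, adjusted p = 0.0107 with limma) and lower in hyperplastic than in normal glands (-0.67, adjusted p = 0.0229), a call that held in 12 of 18 fits with 1 array left out. Acp5, the tartrate-resistant acid phosphatase of lysosomes, was lower in tumors than in hyperplastic glands (-0.84, adjusted p = 0.000277 with limma). Against normal glands, 1 of the 10 was called higher (Sdc4) and 2 lower, with a median of -0.00. Melanocyte genes, which Gpnmb could also follow, had list means between 5.27 and 5.60 in tumors, 5.29 and 5.41 in hyperplastic glands and 5.21 and 5.49 in normal glands over 5 genes. Of these 5 genes, 2 (Pmel and Sox10) exceeded the detection level on average, and Tyr, Dct and Tyrp1 lay below it on all 18 arrays. Sox10 ran from 7.54 to 9.67 in tumors and Pmel from 5.75 to 5.92. The mean of Sox10 was 9.01 for tumors, 8.25 for hyperplastic tissue and 8.11 for normal glands. Sox10 was called higher in tumors than in normal glands, also in 18 of 18 fits with 1 array left out. The list means therefore followed Sox10 for the most part and are no measure of melanocytes. Which cells made Sox10 was not tested.

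Csf1 encodes colony-stimulating factor 1, the growth factor that macrophages depend on, made by fibroblasts, epithelium and other tissue cells. Its level in tumors ran from 8.20 to 10.06, with a median of 8.33. Hyperplastic glands ran from 8.30 to 9.70 (median 8.72) and normal glands from 8.11 to 8.47 (median 8.31). Tumor 3 was alone at 10.06, and the 5 remaining tumors lay between 8.20 and 8.41, inside the normal range. The highest hyperplastic glands were gland 4 at 9.70, gland 3 at 8.96 and gland 2 at 8.90. The log2 difference was 0.29 ± 0.28 for tumors against normal glands, -0.19 ± 0.28 for tumors against hyperplastic glands (adjusted p = 0.685 with limma) and 0.48 ± 0.28 for hyperplastic against normal glands (adjusted p = 0.499). The unadjusted exact permutation p of the last was 0.0281. With Gpnmb, it was the gene whose mean was lower in tumors than in hyperplastic glands.

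Genes that act beside Csf1 were 10 measured colony-stimulating factors, receptors and recruiting chemokines (of 13 listed). Between tumors and hyperplastic glands, limma called 1 of them higher, Csf2, which lay below the detection level on all 18 arrays, so that no difference is given for it, and none lower. Against normal glands, 3 were called higher in tumors (Ccl12, Csf3 and the undetected Csf2) and 1 lower (Kitl), beside 19.5% and 12.7% of all genes. The call of Csf3 held in 8 of 18 fits with 1 array left out. Ccl12, a chemokine that draws monocytes, differed by 1.42 (adjusted p = 0.0126 with limma) and Ccl2, a related one, by 0.09 (adjusted p = 0.877). Il34, the second ligand of the Csf1 receptor, differed by -0.01 between tumors and hyperplastic glands (adjusted p = 0.964 with limma).

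Thbs1 encodes thrombospondin 1, a matrix protein of platelets, fibroblasts and macrophages that limits vessel growth and activates transforming growth factor beta. It ran from 10.14 to 11.30 in tumors (median 10.92), from 9.91 to 11.42 in hyperplastic glands (median 10.66) and from 9.84 to 10.40 in normal glands (median 10.20). Tumor 5 lay inside the normal range, and the 5 remaining tumors, from 10.49 in tumor 1 upwards, lay above all normal glands. Hyperplastic glands 2, 3 and 4 lay at 10.95 to 11.42, and glands 1, 5 and 6 at 9.91 to 10.37. The log2 difference was 0.63 ± 0.24 for tumors against normal glands, which limma did not call with all arrays and did call in 5 of 18 fits with 1 left out and in 4 of 10 other fits, 0.21 ± 0.24 for tumors against hyperplastic glands (adjusted p = 0.606) and 0.42 ± 0.24 for hyperplastic against normal glands (adjusted p = 0.487). Mean levels of 4 platelet genes ran from 6.52 to 7.32 in tumors, from 6.60 to 6.91 in hyperplastic glands and from 6.58 to 6.87 in normal glands. None of the 4 was called in any comparison with limma, and 1 was called lower in tumors than in hyperplastic glands without tumor 3.

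Receptors of thrombospondin 1 and osteopontin moved in both directions. Of 13 measured genes (of 14 listed), 4 were called higher and 3 lower in tumors than in hyperplastic glands, with a median of 0.08, and 6 were called higher and 3 lower than in normal glands, with a median of 0.25. Among the receptor genes, the integrin chain Itgav (0.55, adjusted p = 0.00663 with limma) and the proteoglycan Sdc1 (0.94, adjusted p = 0.000622) were higher in tumors than in hyperplastic glands. Cd47, a receptor of thrombospondin 1 (-0.89, adjusted p = 0.00014 with limma), and the integrin chain Itga4 (-1.32, adjusted p = 0.000143) were lower. Cd44, a receptor of osteopontin, differed by 0.55 (adjusted p = 0.0781 with limma).

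**Figure D3:**
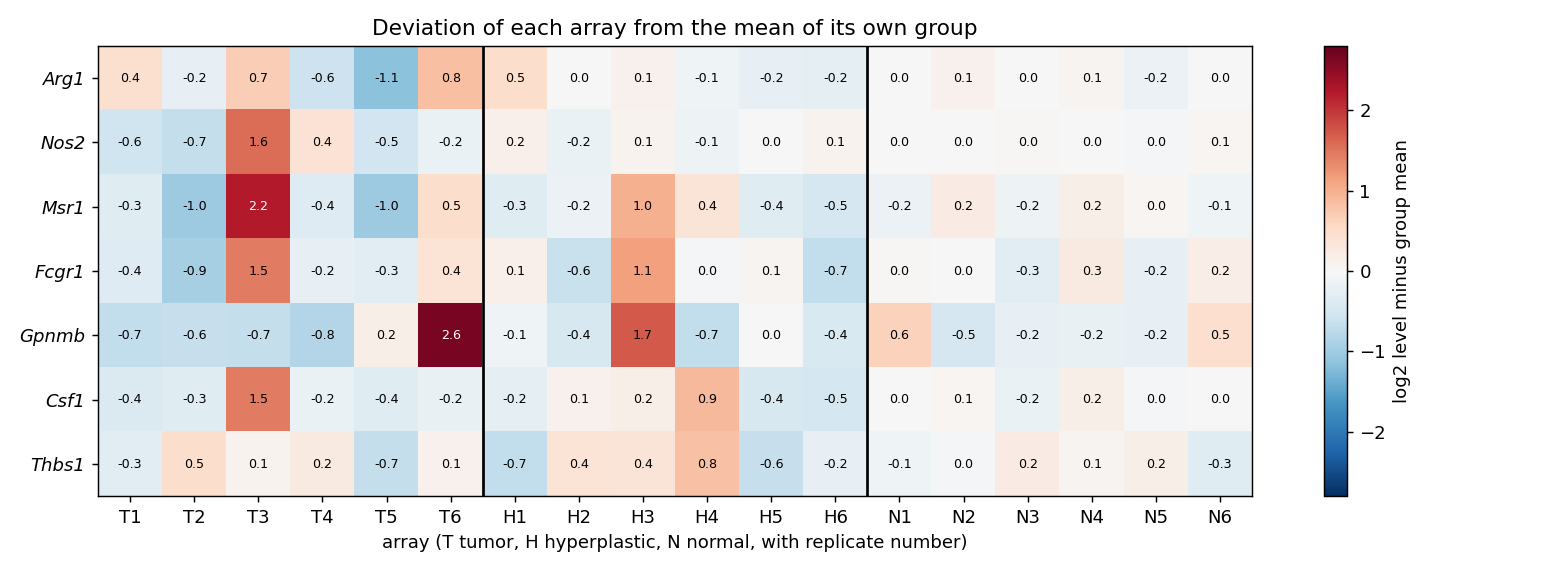
Deviation of each array (columns, T tumor, H hyperplastic, N normal) from the mean of its own group for the 7 macrophage genes (rows), in log2 units, with red above and blue below the group mean. Tumor 3 was 2.22 above the tumor mean for Msr1, 1.56 for Nos2 and 1.46 for both Fcgr1 and Csf1, but 0.66 below it for Gpnmb, while tumor 6 was 2.65 above it for Gpnmb.

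How the 7 genes varied within groups was examined next, as deviations from the group means over the 18 arrays. Msr1 and Fcgr1 moved most closely together (r = 0.87), followed by Msr1 and Csf1 (0.83), Nos2 and Msr1 (0.78) and Nos2 and Fcgr1 (0.70). Tumor 3 was the highest tumor for all 4 of these genes. Gpnmb moved with none of them to that degree, with r = 0.42 against Fcgr1 and -0.14 against Csf1, and Thbs1 was closest to Csf1 (0.47). The correlations are descriptions, since arrays share tissue makeup and tumor 3 weighs on all of them.

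Over 16875 other genes above the detection level, each macrophage gene had its own nearest partners by the same measure. Those of Fcgr1 were Lgmn (0.96), a lysosomal protease, C1qc (0.96) and C1qa (0.95), parts of the complement protein that tissue macrophages make. All of these partners are genes of the pan-macrophage score, so that the relation of Fcgr1 to the score given below repeats these correlations in part. For C1qc the correlation was 0.97 within tumors, 0.96 within hyperplastic glands and 0.98 within normal glands, so that it did not rest on tumor 3 alone. Those of Msr1 were Timp1 (0.98), an inhibitor of matrix proteases, Pgs1 (0.96) and Ptgs2 (0.95), the inducible prostaglandin synthase. With Timp1, r was 0.99 within tumors, 0.97 within hyperplastic glands and 0.50 within normal glands.

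The 5 other genes had partners of more varied function. Those of Nos2 were Pcolce (0.96), Slfn3 (0.95) and Tmem189 (0.94), and those of Csf1 were Flnc (0.95), Abl2 (0.91) and Nipal1 (0.91). Gpnmb was nearest to Mab21l4 (0.90), Atp6v0d2 (0.89), a proton pump subunit of osteoclasts and macrophages, and Tmprss4 (0.89). Of these, Atp6v0d2 kept r = 0.85 within tumors, 0.96 within hyperplastic glands and 0.93 within normal glands. Arg1 was nearest to Nrp2 (0.89), Gas7 (0.88) and Dmxl2 (0.84), with no such relation within normal glands (0.06, 0.17 and -0.17), where Arg1 spanned only 6.91 to 7.19. Thbs1 was nearest to Pgm2 (0.89), Bach1 (0.88) and Zbtb8b (0.85).

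**Figure D4:**
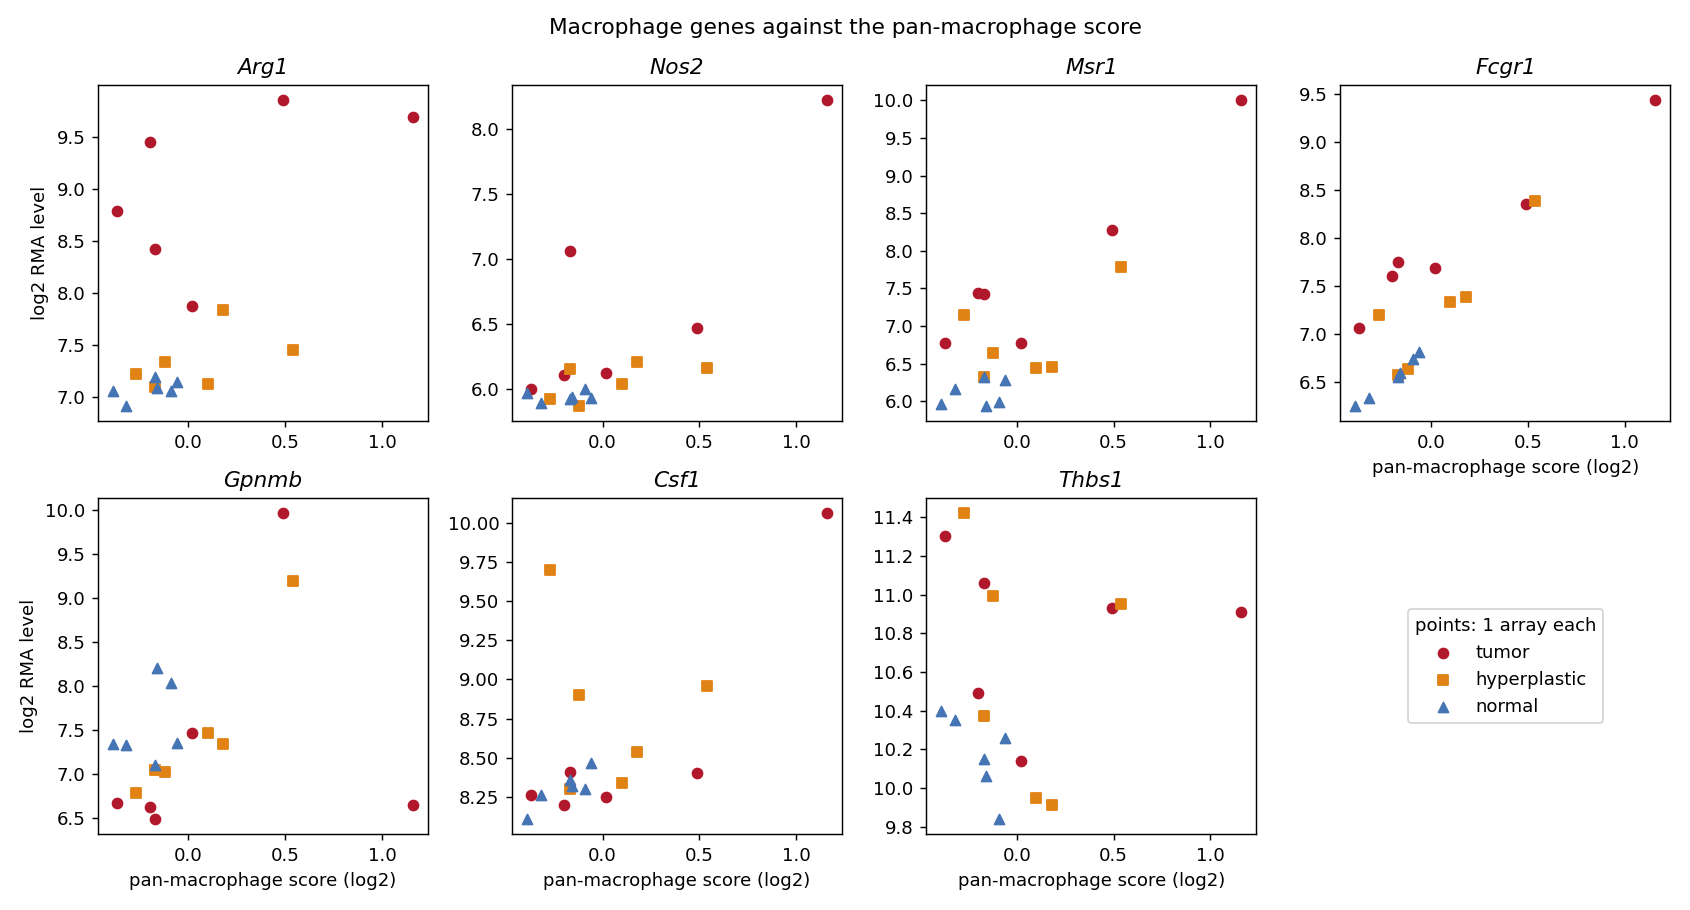
Log2 RMA level of the 7 macrophage genes (vertical axes) against the pan-macrophage score (horizontal axis, log2 units, mean of 14 centred genes), with 1 point per array and tumors, hyperplastic glands and normal glands as circles, squares and triangles. Fcgr1 climbed with the score inside each group (r = 0.98, 0.87 and 0.99), whereas the 6 tumors lay above the other groups for Arg1 at every score.

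The pan-macrophage score was then set against each of the 7 genes inside each group, 21 relations of 6 arrays each, with exact permutation p over 720 pairings and adjustment over the 21. Fcgr1 followed the score in tumors (Pearson r = 0.98, exact p = 0.00417, adjusted p = 0.0389; Spearman rho 0.94, exact p = 0.0167, adjusted p = 0.175). Without the 2 tumors farthest from the median score, r was 0.81. In hyperplastic glands, r was 0.87 (exact p = 0.0306, adjusted p = 0.107; rho 0.83, exact p = 0.0583, adjusted p = 0.245), and 0.98 without the 2 farthest arrays. In normal glands, r was 0.99 (exact p = 0.00139, the smallest that 720 pairings can give, adjusted p = 0.0292; rho 1.00, exact p = 0.00278, adjusted p = 0.0583), and 1.00 without the 2 farthest.

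Gpnmb followed the score among hyperplastic glands (r = 0.94, exact p = 0.00556, adjusted p = 0.0389; rho 0.89, exact p = 0.0333, adjusted p = 0.233; r = 0.89 without the 2 farthest arrays). Among tumors r was 0.27 (exact p = 0.561, adjusted p = 0.693; rho 0.31, exact p = 0.564, adjusted p = 0.697), and 0.74 without the 2 farthest. These relations of Fcgr1 in tumors and normal glands and of Gpnmb in hyperplastic glands were the 3 of 21 that passed with Pearson's r, and none passed with Spearman's rho. At an unadjusted p under 0.05 there were 8 and 3.

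Several other relations among tumors rested on the arrays with the most extreme scores. For Msr1, r was 0.94 (exact p = 0.0222, adjusted p = 0.0933; rho 0.60, exact p = 0.242, adjusted p = 0.461), and -0.04 without the 2 farthest tumors. For Csf1, r was 0.88 (exact p = 0.0361, adjusted p = 0.108; rho 0.60, exact p = 0.242, adjusted p = 0.461), and 0.04 without them. For Nos2, r was 0.81 (exact p = 0.0431, adjusted p = 0.113; rho 0.83, exact p = 0.0583, adjusted p = 0.245), and 0.15 without them. For Arg1, r was 0.57 (exact p = 0.251, adjusted p = 0.48; rho 0.43, exact p = 0.419, adjusted p = 0.629), and -0.62 without them. Thbs1 gave r = 0.00 in tumors (exact p = 0.999, adjusted p = 0.999; rho -0.37, exact p = 0.497, adjusted p = 0.696), and -0.86 without them.

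The macrophage genes around these 7 did not move as a block. Of the 14 genes of the pan-macrophage score, 6 were called higher in tumors than in normal glands and 1 (Mertk) lower, with a median of 0.51. Without tumors 3 and 6 these counts were 3 higher and 4 lower. Against hyperplastic glands, none was called higher and 1 (Laptm5) lower, with a median of 0.23. Without tumor 2 there were 2 called higher, and without tumor 3 there were 3 called lower. With tumors 3 and 6 both left out, 0 were called higher and 5 lower. The call of Laptm5 held in 11 of 18 fits with 1 array left out. Of 13 genes of resident and alternatively activated macrophages, none was called higher and 3 were called lower in tumors than in hyperplastic glands, with a median of -0.19. These were Retnla, a secreted mark of alternative activation (-2.39, adjusted p = 0.00128 with limma), Timd4, a receptor for dying cells on resident macrophages (-2.33, adjusted p = 2.32e-06), and the lectin Clec10a (-0.73, adjusted p = 1.77e-05). Thus, Retnla and Arg1, both commonly used as marks of alternative activation in mice, went in opposite directions in the same tumors. Mrc1, the mannose receptor often used beside them, differed by 0.11 (adjusted p = 0.827 with limma). Fat cell, T cell and B cell genes were also lower in tumors, as given below. Their part in the values of Retnla and Timd4 was not tested.

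The scavenger receptor for haemoglobin Cd163 was lower in hyperplastic than in normal glands by 1.15 on the log2 scale (-1.15, adjusted p = 0.0133 with limma), and differed by -0.07 between tumors and hyperplastic glands (adjusted p = 0.853). The lectin gene Cd209f was also lower in hyperplastic than in normal glands (-0.87, adjusted p = 0.00727 with limma). These were the 2 of 13 resident genes called in that comparison, in which none was called higher.

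Of 18 measured genes of tumor or lipid-laden macrophages outside the 7 (of 22 listed), 2 were called higher and 1 lower in tumors than in hyperplastic glands, with a median of 0.16. Those called higher were Hmox1, the haem oxygenase (0.74, adjusted p = 0.0405 with limma), and the tetraspanin Cd9 (0.55, adjusted p = 0.0129). The gene called lower was the cytokine Il10, which lay below the detection level on all 18 arrays. The call of Hmox1 held in 10 of 18 fits with 1 array left out. Against normal glands, 5 were called higher and 1 lower, with a median of 0.19. Without tumors 3 and 6 these counts were 3 higher and 3 lower. Among 4 measured chitinase-family and alternative activation genes (of 8 listed), only Retnla was called. Of 5 measured monocyte genes (of 6 listed), Vcan, a matrix proteoglycan also of fibroblasts, was higher (1.51, adjusted p = 0.00291 with limma) and Ly6c2 lower (-1.43, adjusted p = 2.16e-05) in tumors than in hyperplastic glands. Ccr2, the monocyte chemokine receptor, differed by 0.19 (adjusted p = 0.703 with limma). Ly6c2 had a mean of 11.10 for normal glands, where Ccr2 had 6.72. T cell and endothelial genes were also lower in tumors, and their part in the value of Ly6c2 was not tested.

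Other cell types in the tissue shifted beside the macrophage genes. Between tumors and hyperplastic glands, limma called lower all 9 fat cell genes (median -2.98), all 7 T cell genes (-2.20), all 5 B cell genes (-2.48), 7 of 10 dendritic cell genes (-0.60), 3 of 4 mast cell genes (-1.03) and 3 of 6 fibroblast genes (-0.58). The fibroblast genes were split. Dcn, Dpt and Lum were the ones called lower, whereas the collagen genes Col1a1 (0.50), Col1a2 (0.25) and Col3a1 (-0.06) were not called. Of 9 luminal epithelial genes none was called (median 0.31), and without tumor 3 there were 5 called higher. Of 5 basal ones 1 (Trp63) was called higher (median 0.35), a call that held in 10 of 18 fits with 1 array left out. There were 2 basal genes called higher without tumor 3, and 0 higher and 1 lower without tumor 5. Of 9 measured hypoxia response genes 5 were called higher, with a median of 0.44. None of 10 neutrophil genes was called (median 0.16), and 2 were called higher without hyperplastic gland 3. Their mean was nevertheless highest in tumor 6 (7.66) and tumor 3 (6.87) among tumors and in hyperplastic gland 3 (7.32) among hyperplastic glands, with a highest normal value of 6.02. These were also the arrays highest in Gpnmb or Msr1. The neutrophil genes with the widest ranges in tumors were S100a8 (5.23 to 10.73), Ltf (8.12 to 12.73) and S100a9 (5.79 to 10.19). Csf3r ran from 6.57 to 8.18, Cxcr2 from 6.49 to 7.81 and Camp from 5.64 to 5.96. Ly6g, Mmp8 and Ngp were below detection on all arrays. Which cells made these transcripts was not tested, so that the mean is no measure of neutrophil number. The part of these shifts in the differences of the 7 genes was not tested.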

How the data were processed

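RNA of 18 mammary tissues was hybridised to Affymetrix mouse whole-transcript arrays, 1 array per tissue. The deposited values are log2 expression levels that the authors made with robust multi-array averaging (RMA: background subtraction, quantile normalization and summary of the probes of a cluster); the submitters' processing notes name Affymetrix Expression Console, RMA and Partek, without versions. Quantile normalization gives all arrays a like distribution, so that a difference in RNA amount per cell was not measurable, and differences near background are low estimates. The number of arrays limits the precision.

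Of 65535 rows, 58803 were transcript clusters and 6732 controls, and a second table of 58776 rows held identical values at all shared entries. Clusters were named through the platform annotation and RefSeq symbols (19869 matched); 1957 clusters with several symbols and 29537 unnamed ones were left out. The cluster with the highest mean stood for a gene, which gave 27030 genes. Arrays were grouped by their titles. A model of 3 group means was fitted to 18 arrays with limma 3.58.1 (lmFit, eBayes, two-sided) in R 4.3.3, and p values were adjusted by Benjamini-Hochberg over all genes, with calls at 0.05. The code was tested on simulated data. The score and correlations used exact permutation tests (scipy 1.17.1).

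The macrophage genes and all gene lists were chosen with earlier results of these data known, so counts over lists support nothing by themselves. The genes named are the macrophage genes, from each list the called genes with the largest changes (up to 4) and relatives of the same family, and the 3 most alike genes of each. Alternatives comprised 2-group fits, centring, the detection filter, an intensity trend, array weights, a replicate block, leaving out arrays, the mean of a gene's clusters, exact permutation tests, and the threshold of the methods, a log2 change beyond 2 with an unadjusted p under 0.05. The counts over lists without single arrays were added after the data were seen.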

Additional observations from a re-analysis of the deposited data

Results flagged for a closer look

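In 24 groups of 6 arrays (the 7 genes and the pan-macrophage score in 3 groups), Dixon's test for a single distant array exceeded its 95% critical value in 3, where chance gives about 1 in 20 groups. Gpnmb in tumor 6 was at 9.96, with the next tumor at 7.47, a gap of 0.719 of the range. Gpnmb in hyperplastic gland 3 was at 9.19, with the next gland at 7.46, a gap of 0.721 of the range. Both arrays had the highest mean of the neutrophil genes in their groups, 7.66 and 7.32, although Ly6g, Mmp8 and Ngp of that list were below detection on all arrays. Csf1 in tumor 3 was at 10.06, with the next tumor at 8.41, a gap of 0.885 of the range. The same tumor had the highest pan-macrophage score and the lowest means of the luminal and basal epithelial genes. What set these arrays apart was not tested.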

How the results depend on the processing

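Under the settings run, Arg1 remained called between tumors and hyperplastic glands in each limma fit, and none of the 7 genes was called between hyperplastic and normal glands. Leaving out each array in turn gave 3 to 5 called genes for tumors against normal glands (4 with all arrays), 1 to 2 for tumors against hyperplastic glands (1 with all; 2 without hyperplastic gland 3) and 0 to 1 for the difference of the steps (0 with all; 1 without tumor 5). At the threshold of the methods there were 0 in the first comparison and 0 in the second. Centring on 5 measured reference genes, which moved the median of all genes to 0.19 for tumors against hyperplastic glands and to -0.14 for hyperplastic against normal glands, gave 4 called genes in tumors against hyperplastic glands and 1 in the difference of the steps. Array weights also gave 1 there. Leaving out tumor 3 and hyperplastic gland 3, added after the data were seen, gave 3 called genes for tumors against hyperplastic glands. The shares of all genes called in these other settings are not given here. These counts therefore describe the 7 genes only and cannot be judged against all genes. Apart from the shift of the median and the arrays left out, the cause was not tested.

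Values near 0 turned round. Csf1 in tumors against normal glands ran from -0.0 (without tumor 3) to 0.37 with 1 array left out, and was -0.03 without tumors 3 and 6 and -0.0 without tumor 3 and hyperplastic gland 3. Gpnmb in tumors against hyperplastic glands ran from -0.69 (without tumor 6) to 0.18 (without hyperplastic gland 3), and was 0.31 without tumor 3 and hyperplastic gland 3. Gpnmb in hyperplastic against normal glands ran from -0.43 to 0.05, and was 0.02 with array weights. Nos2 in hyperplastic against normal glands was -0.03 with reference gene centring. The score difference between tumors and hyperplastic glands ran from -0.09 (without tumor 3) to 0.22, and was -0.22 without tumors 3 and 6. Nos2 in tumors against normal glands was called in 4 of 18 fits with 1 array left out and in 6 of 10 other fits. The 4 correlation counts of the score were 3 with all arrays, array median centring and averaged clusters, and 4 with reference gene centring.

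Same-numbered arrays correlated between -0.19 and 0.11 (tumors and normal glands), -0.06 and 0.40 (tumors and hyperplastic glands) and -0.08 and 0.24 (hyperplastic and normal glands). Their mean r was -0.02, 0.13 and 0.10 in this order, beside 0.0, -0.02 and -0.02 for arrays of other numbers. Whether the numbers pair the samples is not stated by the labels and cannot be told from these values. With the replicate block, 5 genes were called for tumors against normal glands, 1 for tumors against hyperplastic glands, 0 for hyperplastic against normal glands and 0 for the difference of the steps. The shares of all genes called with this block are not given either.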
